A study of Homo sapiens with 18 samples.

Results

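The genes of cholesterol and fatty acid synthesis were followed in 16D cells, a castration-resistant prostate cancer line, across 3 guide RNAs and 2 treatments. They are a list of 40 genes taken by symbol, made up of 5 regulators, 19 genes of the sterol arm, 13 genes of the fatty acid arm and 3 other lipogenic genes. Of these, 39 were among the 26863 symbols of the expression table and 1 (ME1P1) was not analysed here. The 39 were also among the 16067 genes that reached 1 TPM (a level per transcript length, scaled to a fixed sum per library) in at least 3 libraries and so were tested. Of the 39, 35 stood at 1 TPM or more in each of the 18 libraries, and ACACB, SCD5, ELOVL7 and MLXIPL were below that in some library.

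Cells build cholesterol and fatty acids from acetyl-CoA along 2 routes, and the transcription factors SREBP-1 and SREBP-2, encoded by SREBF1 and SREBF2, switch on the enzymes of both. The SREBP precursors sit in the endoplasmic reticulum with the escort protein SCAP, which carries them to the Golgi for cleavage when sterols are scarce, whereas the INSIG proteins hold the complex back when sterols are plentiful. In prostate cancer cells, androgens acting through the androgen receptor are known to raise lipid synthesis genes in part through this system, and enzalutamide blocks that receptor.

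All cells carried lentiviral Cas9 and a guide RNA and were kept for 6 weeks in 10 µM enzalutamide or in DMSO, its vehicle, with 3 libraries in each of 6 groups. The groups were OGDHL guide 1 (sgOGDHL_1), OGDHL guide 2 (sgOGDHL_2) and the control guide (sgAAVS, aimed at a safe-harbour site) in enzalutamide, and the same 3 guides in DMSO. OGDHL encodes a relative of the OGDH subunit of the 2-oxoglutarate dehydrogenase complex. The labels do not say whether a guide population was a pool or a clone, nor whether replicates came from cultures kept apart, and the p-values reflect no more than the library-to-library spread, which may be technical. Since these were bulk samples, fewer cells of a type and less RNA per cell cannot be told apart.

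Levels are TPM after removal of the mitochondrially encoded rows, whose share of the deposited TPM was 50.1% to 73.8% per library. Changes are differences of log2(TPM + 1), which understate those of low genes, with an SE and an adjusted p from limma, and a gene was called at an adjusted p under 0.05. The 10 luminal prostate markers were each at 1 TPM or more on average in all 6 groups, and adipocyte markers (4 genes) summed to at most 0.217 TPM. OGDHL fell in 3 of the 4 comparisons of an OGDHL guide with the control guide. It had 2.56, 2.62 and 2.30 TPM with guide 1, 4.14, 4.33 and 4.35 TPM with guide 2 and 7.63, 7.85 and 7.43 TPM with the control guide in enzalutamide, whereas in DMSO the levels were 6.17, 7.31 and 6.54 TPM for the libraries labelled guide 2, 1.93, 2.29 and 3.16 TPM for guide 1 and 4.68, 4.86 and 4.62 TPM for the control guide. The libraries labelled guide 2 in DMSO thus had more OGDHL RNA than the control libraries (log2 change 0.42, adjusted p = 0.00088, limma), unlike the other 3 comparisons. An RNA level does not by itself show whether a guide edited the gene, and whether the label is right was not tested. The libraries labelled guide 2 in DMSO also stood apart otherwise, with 1406 to 1630 rows at 0 TPM against 3042 to 4498 elsewhere. Their correlations to libraries of other groups were 0.887 to 0.920. Their leukocyte markers (5 genes, led by CD68 and LYZ) summed to 24.0 to 29.7 TPM, against 0.894 to 2.17 TPM elsewhere. Among the guide 1 libraries in DMSO, the mitochondrial share was 73.8% and 69.9% in replicates 1 and 2 and 57.2% in replicate 3. What part these features had in the results below was not tested.

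With the control guide, most of the pathway was lower in enzalutamide than in DMSO. Of the 39 genes, 32 fell and 3 rose, and the other 4 did not pass the test, where 24.8% of all tested genes fell and 23.1% rose. The median log2 change was -0.70 over the 39 genes and -0.01 over all tested genes. In the sterol arm 16 of 19 genes fell and 1 rose, in the fatty acid arm 11 of 13 fell and 1 rose, and of the 5 regulators 4 fell and 1 rose. These counts were the same at each pseudocount and under each scaling that left out the mitochondrial rows. Leaving out any library left 34 or 35 calls. The mitochondrial share was 55.8% ± 5.01 in enzalutamide and 54.5% ± 0.904 in DMSO (SD, n = 3 each).

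**Figure D1:**
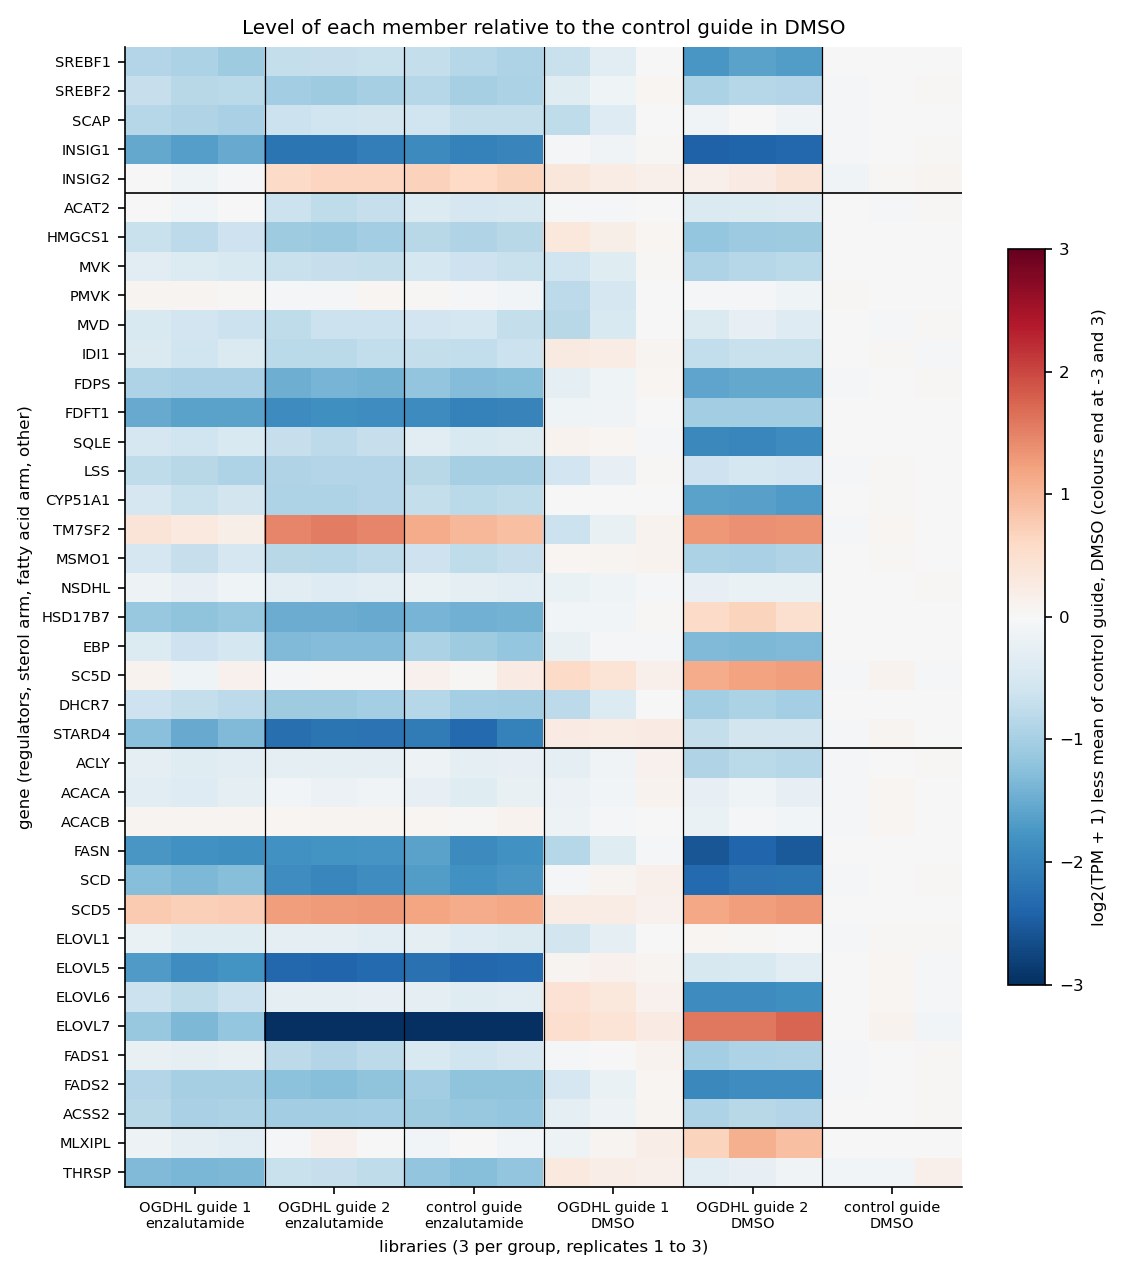
Heat map of the 39 genes (rows, with lines between regulators, sterol arm, fatty acid arm and other genes) in the 18 libraries (columns, 3 per group), as log2(TPM + 1) less the mean of the control guide in DMSO, with colours ending at -3 and 3. Blue, lower than that mean, fills most rows of the 3 enzalutamide groups and of the libraries labelled guide 2 in DMSO, whereas INSIG2, TM7SF2 and SCD5, the 3 genes that rose with the control guide, are red in the columns of that guide in enzalutamide.

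INSIG1, which encodes a protein that retains the SREBP complex and is itself a target of SREBPs (chr7:155297776-155310235, plus strand), was the regulator that changed most. It had 123, 113 and 117 TPM in enzalutamide and 453, 463 and 471 TPM in DMSO, so that each DMSO library held over 3 times the level of any enzalutamide library. The log2 change was -1.97 ± 0.049 (SE, adjusted p = 1.3e-13, limma). INSIG2, its relative in the same retention step, moved the other way, with 13.6, 12.6 and 13.3 TPM in enzalutamide and 7.43, 8.20 and 8.48 TPM in DMSO (0.65 ± 0.065, adjusted p = 9.3e-07). SREBF2 (chr22:41833079-41907308, plus strand), whose product acts mainly on sterol genes, had 22.1, 19.8 and 20.5 TPM in enzalutamide and 39.3, 40.98 and 41.6 TPM in DMSO (-0.93 ± 0.080, adjusted p = 1.9e-07). SREBF1 (chr17:17810399-17837002, minus strand), whose product acts mainly on fatty acid genes, had 94.2, 85.7 and 82.2 TPM in enzalutamide and 155, 158 and 156 TPM in DMSO (-0.83 ± 0.12, adjusted p = 3.1e-05). For both factors the groups did not overlap. The escort gene SCAP had 11.3, 10.3 and 10.2 TPM in enzalutamide and 16.98, 17.8 and 17.7 TPM in DMSO and also fell (-0.67 ± 0.13, adjusted p = 0.00052).

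In the sterol arm the fall ran from the first steps to the last. Among the early enzymes, ACAT2, which joins acetyl-CoA units, changed by -0.46, HMGCS1, which adds the next unit, by -0.86, the mevalonate kinase MVK by -0.61, MVD, which makes isopentenyl diphosphate, by -0.60, and its isomerase IDI1 by -0.70 on the log2 scale, and all 5 fell. PMVK, the kinase between MVK and MVD, did not pass the test (32.2, 30.2 and 29.7 TPM in enzalutamide, 32.5, 31.1 and 31.4 TPM in DMSO). FDPS, which makes farnesyl diphosphate (chr1:155308748-155320666, plus strand), had 61.4, 56.5 and 57.9 TPM in enzalutamide and 138, 139.8 and 145 TPM in DMSO (-1.25 ± 0.065, adjusted p = 5.9e-10, limma). FDFT1, squalene synthase and the first enzyme committed to sterols, had 34.1, 30.8 and 31.4 TPM in enzalutamide and 127, 130.0 and 130.5 TPM in DMSO (-1.98 ± 0.041, adjusted p = 1.5e-14), a mean 4.02 times lower. SQLE, the epoxidase that acts next, changed less, with 32.3, 30.01 and 30.3 TPM in enzalutamide and 40.99, 41.6 and 41.3 TPM in DMSO (-0.41, adjusted p = 5.0e-06).

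After lanosterol is formed by LSS (log2 change -0.94), a series of enzymes trims and reduces the ring system. CYP51A1, which removes a methyl group, and MSMO1, which oxidises the next ones, changed by -0.76 and -0.69, NSDHL, the dehydrogenase that acts after MSMO1, by -0.27 and DHCR7, the last reductase of the cholesterol route, by -0.98, and these 5 genes fell. HSD17B7, the ketosteroid reductase (chr1:162790702-162812817, plus strand), had 6.20, 6.06 and 6.13 TPM in enzalutamide and 17.8, 18.02 and 18.2 TPM in DMSO (-1.42 ± 0.044, adjusted p = 1.6e-12, limma). EBP, the sterol isomerase (chrX:48521158-48528716, plus strand), had 64.6, 59.1 and 56.1 TPM in enzalutamide and 126, 126 and 125 TPM in DMSO (-1.06 ± 0.060, adjusted p = 1.6e-09). Their groups stood far apart, with no overlap. TM7SF2, a sterol C14 reductase (chr11:65111845-65116384, plus strand), was the gene of the arm that rose, with 267, 245 and 229.7 TPM in enzalutamide and 119, 128 and 121 TPM in DMSO (1.00 ± 0.13, adjusted p = 1.4e-05). SC5D, the lathosterol desaturase, had 33.7, 31.3 and 36.4 TPM in enzalutamide and 29.6, 33.1 and 29.2 TPM in DMSO and did not pass the test (adjusted p = 0.27). STARD4, a carrier that moves cholesterol between membranes (chr5:111496033-111512590, minus strand), had the largest fall of the arm. Its levels were 6.32, 5.14 and 6.66 TPM in enzalutamide and 28.7, 31.98 and 29.8 TPM in DMSO (-2.15 ± 0.081, adjusted p = 1.3e-11), a mean 4.99 times lower.

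The fatty acid arm held the genes of highest and of most changed level. FASN, the fatty acid synthase (chr17:82078333-82098332, minus strand), had 491, 397 and 426 TPM in enzalutamide and 1466, 1499 and 1504 TPM in DMSO (-1.77 ± 0.14, adjusted p = 7.0e-08, limma). SCD, the stearoyl-CoA desaturase (chr10:100347124-100364834, plus strand), had 487, 443 and 465 TPM in enzalutamide and 1508, 1595 and 1610.1 TPM in DMSO (-1.75 ± 0.055, adjusted p = 1.7e-12). These 2 genes made up 76.2% ± 0.677 of the summed TPM of the 13 genes in enzalutamide and 86.2% ± 0.0800 in DMSO (SD, n = 3 each), and the sum of the arm was 1186 ± 83.2 TPM in enzalutamide and 3549 ± 87.5 TPM in DMSO. Without them the rest of the arm still summed to 282 ± 14.1 TPM in enzalutamide and 488 ± 12.5 TPM in DMSO.

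Elongases, which lengthen the chains, differed widely in the size of their change. ELOVL7 (chr5:60751791-60844389, minus strand) had 0.417, 0.291 and 0.319 TPM in enzalutamide and 14.6, 15.7 and 13.7 TPM in DMSO (-3.54 ± 0.075, adjusted p = 2.2e-14, limma), a mean 42.7 times lower. ELOVL5 (chr6:53267398-53349179, minus strand), an elongase of polyunsaturated chains, had 16.3, 14.9 and 15.3 TPM in enzalutamide and 80.5, 83.3 and 77.9 TPM in DMSO (-2.31 ± 0.049, adjusted p = 2.2e-14). ELOVL6 and ELOVL1 also fell, by smaller amounts (-0.32 and -0.37). FADS2 (chr11:61792980-61867354, plus strand), a desaturase of polyunsaturated chains, had 51.3, 45.2 and 45.1 TPM in enzalutamide and 102, 107 and 109.8 TPM in DMSO (-1.16 ± 0.098, adjusted p = 1.6e-07). Its partner FADS1 changed by -0.51 and fell as well. The 2 genes overlap on opposite strands, and since the use of strand in the counting is not given in the sources used here, their reads may not be fully separated. HSD17B7 and FDPS have near-identical pseudogene copies, so their levels carry the same kind of doubt.

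Upstream of FASN the changes were small for ACLY and ACACA and larger for ACSS2. ACLY, which makes cytosolic acetyl-CoA from citrate, changed by -0.23 (adjusted p = 0.022, limma) and ACACA, the cytosolic acetyl-CoA carboxylase, by -0.28 (adjusted p = 0.0032). ACSS2, which makes acetyl-CoA from acetate, changed more (-1.12, adjusted p = 4.5e-09). SCD5, the second stearoyl-CoA desaturase gene, rose, with 2.14, 1.98 and 2.07 TPM in enzalutamide and 0.367, 0.398 and 0.381 TPM in DMSO (1.15 ± 0.043, adjusted p = 1.3e-11), and stayed far below SCD. ACACB, the mitochondrial carboxylase, and MLXIPL, which encodes the carbohydrate-responsive factor ChREBP, did not pass the test. THRSP, a lipogenic nuclear protein, fell (-1.21, adjusted p = 1.1e-09).

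Set side by side, the arms did not separate clearly. The median log2 change was -0.70 in the sterol arm and -0.51 in the fatty acid arm, a difference of -0.19, but the mean change had the opposite order, -0.74 in the sterol arm and -0.93 in the fatty acid arm, where ELOVL7, ELOVL5, FASN and SCD had the largest falls. With genes filtered at 5 TPM the difference of medians was 0.42. As mean log2(TPM + 1) over genes, the sterol arm stood at 4.58 ± 0.0539 in enzalutamide and 5.32 ± 0.0149 in DMSO, and the fatty acid arm at 4.34 ± 0.0627 in enzalutamide and 5.28 ± 0.0315 in DMSO (SD, n = 3 each). The sterol arm less the fatty acid arm was 0.230 to 0.252 per library in enzalutamide and 0.0263 to 0.0593 in DMSO, so on this measure the libraries did not overlap. This measure is a mean over few genes and leans on ELOVL7, which changed by -3.54 and was at 0.291 to 0.417 TPM in enzalutamide. It was not computed without ELOVL7, so it does not show that the arms as a whole separated.

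**Figure D2:**
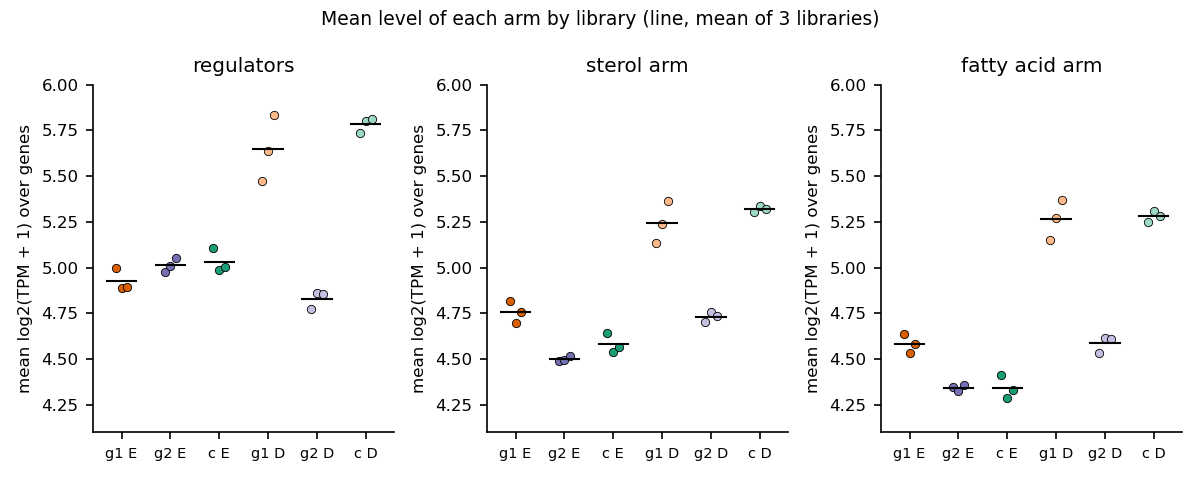
Mean log2(TPM + 1) over the genes of each arm, per library (points) with the mean of 3 libraries (line), where g1 and g2 are the OGDHL guides, c is the control guide, E is enzalutamide and D is DMSO. In all 3 panels the enzalutamide groups and the libraries labelled guide 2 in DMSO lie below the other DMSO groups, and the guide 1 libraries in DMSO are spread more widely than any other group.

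Promoter sequences are described because so many of these genes moved together. RefSeq promoters (GRCh38.p14, 250 bases before to 50 bases after the start) were matched by symbol for 35 of the 40 genes, 47 promoters in all, and were searched on both strands for TCACNCCAC (a form of the sterol regulatory element that SREBPs bind), CCAAT (the NF-Y box), GGGCGG (the Sp1 box), CACGTG (an E-box) and AGAACA (a core of androgen response elements). FASN, ACAT2, FDFT1, SQLE and ME1P1 had no promoter in the set. With a gene counted where any of its promoters held the letters, the NF-Y box was found in 26 of 35 genes (74.3%). It was in 14 of 16 genes of the sterol arm (87.5%) and 9 of 12 of the fatty acid arm (75.0%). Among genes with a promoter in the set, 43.4% of tested genes and 39.7% of all genes held it. The Sp1 box was in 91.4% of the 35, against 75.4% of tested genes and 48.3% of all genes. The E-box was in 14.3%, against 12.4% of tested genes and 8.77% of all genes, and the androgen core in 2.86%, against 12.2% of tested genes and 17.5% of all genes. The sterol element form was found in SREBF2 alone of the 35 (2.86%), and in 1.46% of tested genes and 1.39% of all genes. A match is a description of the letters and not a shown binding site, and a promoter without a match says nothing of the factor.

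The sequences below run 5′ to 3′ from RefSeq, with the NF-Y box (CCAAT, or ATTGG on the other strand) and the sterol element form in capitals. SREBF2 (chr22:41832855-41833154, plus strand) is shown for its sterol element form, which begins 133 bases before the start with an NF-Y box at 106. FDPS (chr1:155308616-155308915, plus strand) and EBP (chrX:48521558-48521857, plus strand) are shown as genes that fell, each with 3 NF-Y boxes. TM7SF2 (chr11:65111622-65111921, plus strand) has an NF-Y box at 74 bases before the start and rose, and ELOVL7 (chr5:60844220-60844519, minus strand) has neither motif and fell most.
SREBF2: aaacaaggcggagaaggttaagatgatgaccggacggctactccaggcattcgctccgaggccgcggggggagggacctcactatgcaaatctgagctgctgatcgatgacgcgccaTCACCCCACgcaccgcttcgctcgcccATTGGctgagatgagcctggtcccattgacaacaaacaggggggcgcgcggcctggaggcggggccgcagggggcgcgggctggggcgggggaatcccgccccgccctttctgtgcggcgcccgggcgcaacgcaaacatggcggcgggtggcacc
FDPS: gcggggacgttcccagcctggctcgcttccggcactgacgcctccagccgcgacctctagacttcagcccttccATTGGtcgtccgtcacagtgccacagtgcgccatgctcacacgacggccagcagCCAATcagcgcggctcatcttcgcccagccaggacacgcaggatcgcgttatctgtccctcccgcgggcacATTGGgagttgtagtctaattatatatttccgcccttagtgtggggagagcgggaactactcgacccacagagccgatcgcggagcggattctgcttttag
EBP: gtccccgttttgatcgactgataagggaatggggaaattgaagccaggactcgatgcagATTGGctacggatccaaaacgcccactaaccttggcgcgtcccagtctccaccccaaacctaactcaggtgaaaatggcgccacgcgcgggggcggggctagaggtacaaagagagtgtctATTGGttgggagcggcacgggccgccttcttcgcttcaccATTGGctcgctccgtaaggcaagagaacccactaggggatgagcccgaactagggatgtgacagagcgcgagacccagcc
TM7SF2: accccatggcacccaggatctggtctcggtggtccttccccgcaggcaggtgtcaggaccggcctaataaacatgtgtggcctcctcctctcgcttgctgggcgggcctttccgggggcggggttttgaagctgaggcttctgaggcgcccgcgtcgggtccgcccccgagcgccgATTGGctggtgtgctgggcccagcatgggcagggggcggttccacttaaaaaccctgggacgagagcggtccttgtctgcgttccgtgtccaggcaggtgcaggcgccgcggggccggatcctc
ELOVL7: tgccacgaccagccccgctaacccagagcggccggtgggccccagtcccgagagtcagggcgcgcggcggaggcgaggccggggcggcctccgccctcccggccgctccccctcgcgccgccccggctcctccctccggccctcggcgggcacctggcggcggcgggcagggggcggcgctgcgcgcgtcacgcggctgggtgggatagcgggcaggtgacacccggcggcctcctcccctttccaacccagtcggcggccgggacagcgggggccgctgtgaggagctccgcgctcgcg

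With OGDHL guide 1, 29 of the 39 genes were lower in enzalutamide than in DMSO and 4 were higher, where 23.3% of all tested genes fell and 19.5% rose. The sterol arm had 12 lower and 2 higher genes of 19, the fatty acid arm 10 lower and 2 higher of 13, and all 5 regulators fell. FASN had 447, 424 and 415 TPM in enzalutamide and 829, 1151 and 1439 TPM in DMSO (-1.37 ± 0.14, adjusted p = 1.9e-06, limma). SCD had 649, 612 and 646 TPM in enzalutamide and 1543, 1672 and 1756 TPM in DMSO (-1.38 ± 0.055, adjusted p = 5.4e-11). The groups did not overlap for either gene, although FASN varied widely among the DMSO libraries. ELOVL7 had 6.12, 5.16 and 5.96 TPM in enzalutamide and 21.2, 19.7 and 17.5 TPM in DMSO (-1.60 ± 0.075, adjusted p = 3.9e-10), STARD4 11.9, 9.85 and 11.4 TPM in enzalutamide and 36.1, 35.1 and 35.9 TPM in DMSO (-1.61 ± 0.081, adjusted p = 8.3e-10). INSIG2, which rose with the control guide, fell here, with 8.15, 7.26 and 7.67 TPM in enzalutamide and 10.4, 9.47 and 8.998 TPM in DMSO (-0.29 ± 0.065, adjusted p = 0.0026), although on TPM with the mitochondrial rows kept its change was 0.017.

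The genes that did not pass with guide 1 were ACAT2, MVK, MVD, NSDHL, DHCR7 and ELOVL1, and those that rose were PMVK, TM7SF2, ACACB and SCD5. The median log2 change was -0.58 over the 39 genes, -0.56 in the sterol arm and -0.74 in the fatty acid arm, and -0.0044 over all tested genes. Replicates 1 and 2 of the DMSO libraries had the high mitochondrial shares given above. With replicate 3 as the only DMSO library of guide 1, an alternative chosen after seeing the data, 31 genes fell and 1 rose, 28 of them as before, in a fit where the lone library is assumed to vary like those of the other groups. On TPM with the mitochondrial rows kept, 11 fell and 4 rose, with the median of all tested genes at 0.19.

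With OGDHL guide 2 the change with enzalutamide was mixed, and the DMSO libraries were those with more OGDHL RNA than the control libraries. Of the 39 genes 15 fell and 13 rose, where 49.7% of all tested genes fell and 23.0% rose. The median log2 change was 0.027 over the 39 genes and -0.20 over all tested genes. Under median-of-ratios scaling, which put the median of all tested genes at 0.05, 24 genes rose and 8 fell, and under quantile normalization 24 rose and 9 fell. NSDHL, called lower in the scaling used here (-0.14), was called higher in both. FASN had 425, 427 and 434 TPM in enzalutamide and 251, 287 and 259.5 TPM in the libraries labelled guide 2 in DMSO (0.69 ± 0.14, adjusted p = 0.00042, limma), and SCD had 432, 401 and 433 TPM in enzalutamide and 312, 335 and 342 TPM in DMSO (0.36 ± 0.055, adjusted p = 3.7e-05). Both rose, with no overlap, and their DMSO levels here were the lowest of the 3 guides. ELOVL7 went the other way, with 0.454, 0.454 and 0.437 TPM in enzalutamide and 45.4, 45.6 and 51.6 TPM in DMSO (-5.06 ± 0.075, adjusted p = 1.6e-16). HSD17B7 had 5.80, 5.76 and 5.71 TPM in enzalutamide and 27.2, 29.4 and 25.7 TPM in DMSO (-2.07 ± 0.044, adjusted p = 5.9e-15), and STARD4 had 5.45, 5.83 and 5.69 TPM in enzalutamide and 18.01, 20.1 and 20.4 TPM in DMSO (-1.62 ± 0.081, adjusted p = 1.1e-10).

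Of the 3 comparisons of enzalutamide with DMSO, that of guide 2 rested on the DMSO libraries with more OGDHL RNA than the control libraries. In all 3, 9 of the 39 genes (23.1%) fell, against 9.87% of all tested genes: SCAP, FDFT1, LSS, HSD17B7, STARD4, ELOVL5, ELOVL7, ACSS2 and THRSP. None rose in all 3. With the control guide and guide 1, 26 genes fell (66.7%, against 13.8% of all tested genes), and of these 11 were higher in the guide 2 comparison (28.2% of the 39, against 1.92% of all tested genes): SREBF1, INSIG1, SQLE, CYP51A1, MSMO1, ACLY, FASN, SCD, ELOVL6, FADS1 and FADS2. The 3 comparisons share no libraries.

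**Figure D3:**
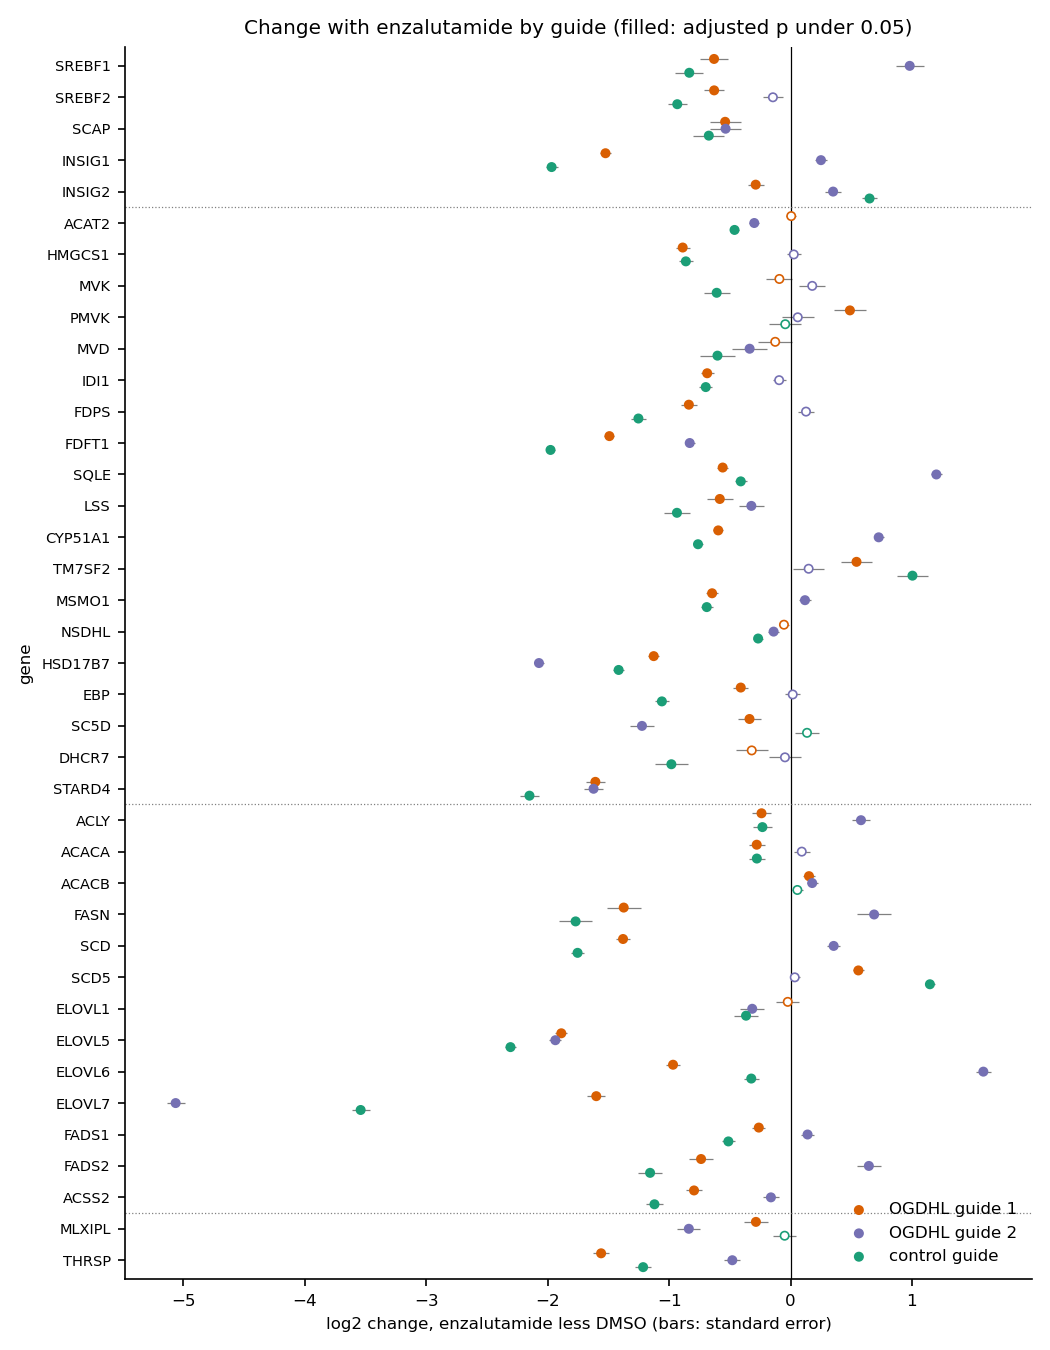
Log2 change with enzalutamide (enzalutamide less DMSO, x axis, with SE bars) of each of the 39 genes (y axis) with OGDHL guide 1, OGDHL guide 2 and the control guide, filled where the adjusted p was under 0.05. The control guide and guide 1 points lie mostly left of 0, whereas 13 guide 2 points lie right of 0 and pass the test, and ELOVL7 reaches -5.06 with guide 2.

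In enzalutamide, the pathway stood somewhat higher with OGDHL guide 1 than with the control guide. Of the 39 genes 15 were higher and 4 lower, where 16.3% of all tested genes were higher and 14.3% lower. The sterol arm had 9 higher genes of 19 and 1 lower, and the fatty acid arm 5 higher of 13 and 2 lower. The median log2 change was 0.13 over the 39 genes, 0.18 in the sterol arm and 0.057 in the fatty acid arm, and 0.00068 over all tested genes. ELOVL7 differed most, with 6.12, 5.16 and 5.96 TPM with guide 1 and 0.417, 0.291 and 0.319 TPM with the control guide (2.33 ± 0.075, adjusted p = 1.6e-11, limma). STARD4 had 11.9, 9.85 and 11.4 TPM with guide 1 and 6.32, 5.14 and 6.66 TPM with the control guide (0.78 ± 0.081, adjusted p = 4.3e-06). EBP had 94.1, 81.7 and 87.3 TPM with guide 1 and 64.6, 59.1 and 56.1 TPM with the control guide (0.54 ± 0.060, adjusted p = 8.1e-06). For all 3 genes the guide 1 libraries lay above every control library and below every DMSO library of guide 1 or the control guide. SCD (0.45), ELOVL5 (0.52), INSIG1 (0.40) and FDFT1 (0.40) were also higher.

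FASN did not pass the test, with 447, 424 and 415 TPM with guide 1 and 491, 397 and 426 TPM with the control guide (adjusted p = 0.92, limma). By limma SREBF1 (adjusted p = 0.45) and SREBF2 (adjusted p = 0.18) did not pass either. For SREBF2 the groups did not overlap, with 24.7, 22.4 and 22.6 TPM with guide 1 and 22.1, 19.8 and 20.5 TPM with the control guide. The variance in the test was shared by all 6 groups, and SREBF2 varied most with guide 1 in DMSO (SD 5.52 TPM). The 4 lower genes were INSIG2, TM7SF2, SCD5 and ELOVL6. TM7SF2 had 161, 149 and 139 TPM with guide 1 and 267, 245 and 229.7 TPM with the control guide (-0.72 ± 0.13, adjusted p = 0.00066). The luminal markers moved with this comparison: 6 of 10 were higher and 1 lower, and their summed level was 5905 to 6336 TPM with guide 1 and 2500 to 2683 TPM with the control guide. Among them KLK3, the androgen target that encodes prostate-specific antigen, had 2145, 1994 and 1951 TPM with guide 1 and 136, 134 and 126 TPM with the control guide. Their part in the result was not tested. On TPM with the mitochondrial rows kept, 2 genes were higher and 4 lower.

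With OGDHL guide 2 in enzalutamide, 2 of the 39 genes were higher than with the control guide and 7 lower, where 8.97% of all tested genes were higher and 5.02% lower. Over the 39 genes the median log2 change was -0.065, and over all tested genes 0.018. The lower genes were INSIG1, ACAT2, HMGCS1, SQLE, CYP51A1, EBP and FADS1, and the higher ones TM7SF2 and THRSP. EBP had 49.9, 50.2 and 50.04 TPM with guide 2 and 64.6, 59.1 and 56.1 TPM with the control guide (-0.25 ± 0.060, adjusted p = 0.011, limma). TM7SF2 had 342, 355 and 342 TPM with guide 2 and 267, 245 and 229.7 TPM with the control guide (0.49 ± 0.13, adjusted p = 0.022). INSIG1 had 101, 103 and 108 TPM with guide 2 and 123, 113 and 117 TPM with the control guide (-0.17 ± 0.049, adjusted p = 0.028). None of these changes exceeded 0.51 on the log2 scale. Leaving out replicate 3 of the control guide in enzalutamide, or replicate 1 or 2 of guide 2 in enzalutamide, left 5 calls each. On TPM with the mitochondrial rows kept limma called none of the 39, with 6 at an unadjusted p under 0.05, against 14 calls under quantile normalization and 19 with array weights.

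The comparisons of the 2 OGDHL guides with the control guide share the control libraries. Set against each other directly in enzalutamide, guide 2 had 7 genes higher and 20 lower than guide 1, where 22.2% of all tested genes were higher and 18.8% lower. In the sterol arm 13 of 19 were lower and 1 higher, and in the fatty acid arm 5 of 13 were lower and 3 higher. EBP had 49.9, 50.2 and 50.04 TPM with guide 2 and 94.1, 81.7 and 87.3 TPM with guide 1 (-0.79 ± 0.060, adjusted p = 1.1e-07, limma), and ELOVL7 had 0.454, 0.454 and 0.437 TPM with guide 2 and 6.12, 5.16 and 5.96 TPM with guide 1 (-2.22 ± 0.075, adjusted p = 2.6e-11). SREBF2 was also lower, with 19.1, 18.7 and 19.9 TPM with guide 2 and 24.7, 22.4 and 22.6 TPM with guide 1 (-0.26 ± 0.080, adjusted p = 0.018). FASN did not pass the test (adjusted p = 1). On TPM with the mitochondrial rows kept 5 genes were higher and 9 lower.

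**Figure D4:**
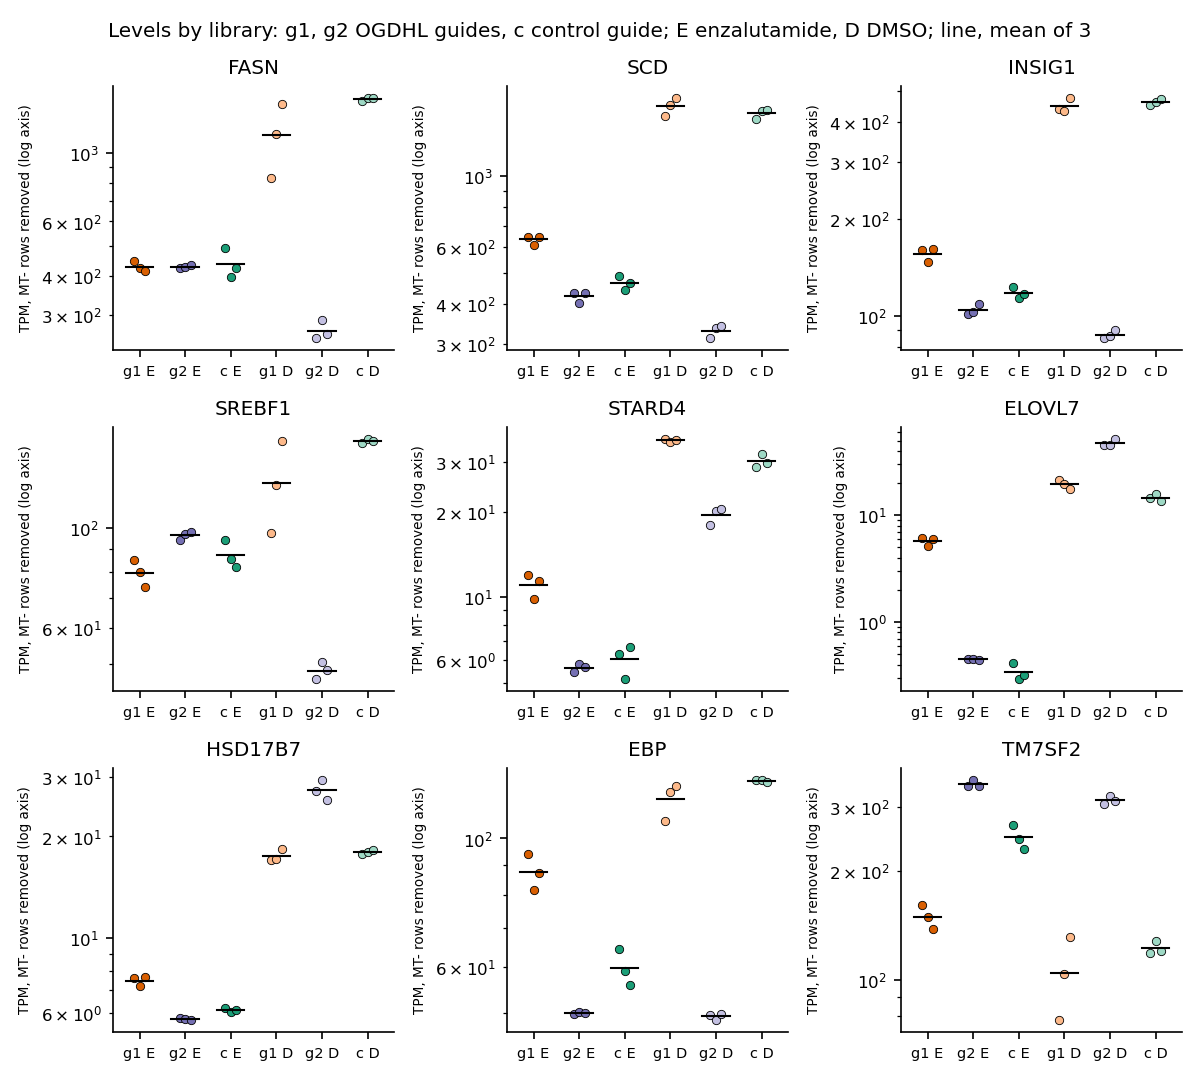
TPM on a log axis of 9 genes in each library (points) with the mean of 3 (line), where g1 and g2 are the OGDHL guides, c is the control guide, E is enzalutamide and D is DMSO. For FASN, SCD and INSIG1 the libraries labelled guide 2 in DMSO are the lowest of all, whereas for ELOVL7 and HSD17B7 they are the highest, and TM7SF2 has its highest levels with guide 2 in enzalutamide and in the libraries labelled guide 2 in DMSO.

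In DMSO, OGDHL guide 1 split the list evenly and the split rested on few libraries. Of the 39 genes 9 were higher than with the control guide and 9 lower, where 21.1% of all tested genes were higher and 11.1% lower. Over the 39 genes the median log2 change was -0.055, and over all tested genes 0.021. FASN had 829, 1151 and 1439 TPM with guide 1 and 1466, 1499 and 1504 TPM with the control guide (-0.42 ± 0.14, adjusted p = 0.037, limma), and SREBF1 had 97.5, 124 and 156 TPM with guide 1 and 155, 158 and 156 TPM with the control guide (-0.33 ± 0.12, adjusted p = 0.044). In both, the replicate with the highest mitochondrial share was the lowest and replicate 3 lay close to or within the control libraries. DHCR7 had 40.4, 52.6 and 71.1 TPM with guide 1 and 70.04, 69.4 and 70.7 TPM with the control guide (-0.39 ± 0.13, adjusted p = 0.042), with replicate 3 just above the control libraries. STARD4 had 36.1, 35.1 and 35.9 TPM with guide 1 and 28.7, 31.98 and 29.8 TPM with the control guide (0.24 ± 0.081, adjusted p = 0.041), and ELOVL7 had 21.2, 19.7 and 17.5 TPM with guide 1 and 14.6, 15.7 and 13.7 TPM with the control guide (0.39 ± 0.075, adjusted p = 0.011). For these 2 genes every guide 1 library was above every control library, but with the mitochondrial rows kept both changes reversed, to -0.23 for STARD4 and -0.072 for ELOVL7.

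The 18 calls of guide 1 in DMSO were the least stable of those described. Leaving out control replicate 1, 2 or 3 in DMSO left 0, 7 and 1 calls by limma. Leaving out guide 1 replicate 1 or 2 in DMSO left 0 calls each, and leaving out any guide 2 library in enzalutamide left 11. At an unadjusted p under 0.05 there were 19 genes without control replicate 1, 13 without guide 1 replicate 1 and 19 without guide 1 replicate 2. With replicate 3 as the only guide 1 library, limma called none, with 4 genes at an unadjusted p under 0.05, and a fit of the 6 libraries of this comparison alone called none, with 9. In contrast array weights called 35, and on TPM with the mitochondrial rows kept 28 genes were lower and 0 higher, with the median of all tested genes at -0.27. Under median-of-ratios scaling 7 were higher and 15 lower. Without a filter on low values 8 were higher and 0 lower.

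In the libraries labelled guide 2 in DMSO, most of the pathway stood below the control guide. Of the 39 genes 28 were lower and 7 higher, where 24.0% of all tested genes were lower and 50.9% higher, and the median log2 change was -0.69 over the 39 genes and 0.23 over all tested genes. Under median-of-ratios scaling, which put the median of all tested genes at -0.06, 32 were lower and 6 higher. FASN had 251, 287 and 259.5 TPM in the libraries labelled guide 2 and 1466, 1499 and 1504 TPM with the control guide (-2.48 ± 0.14, adjusted p = 3.9e-10, limma), a mean 5.60 times lower. INSIG1 had 84.9, 86.6 and 90.2 TPM in the libraries labelled guide 2 and 453, 463 and 471 TPM with the control guide (-2.39 ± 0.049, adjusted p = 3.6e-15). SCD had 312, 335 and 342 TPM in the libraries labelled guide 2 and 1508, 1595 and 1610.1 TPM with the control guide (-2.25 ± 0.055, adjusted p = 2.9e-14). These 3 genes were lower there than in any library of the other 5 groups. ELOVL6, an elongase of saturated chains, had 1.45, 1.42 and 1.51 TPM in the libraries labelled guide 2 and 7.86, 8.35 and 7.75 TPM with the control guide (-1.87 ± 0.061, adjusted p = 7.9e-13).

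HSD17B7 and ELOVL7 were among the 7 genes higher in the libraries labelled guide 2 than with the control guide. HSD17B7 had 27.2, 29.4 and 25.7 TPM in the libraries labelled guide 2 and 17.8, 18.02 and 18.2 TPM with the control guide (0.58 ± 0.044, adjusted p = 1.5e-08, limma). ELOVL7 had 45.4, 45.6 and 51.6 TPM in the libraries labelled guide 2 and 14.6, 15.7 and 13.7 TPM with the control guide (1.63 ± 0.075, adjusted p = 4.1e-11). INSIG2 was called higher (0.26) but had a change of -0.053 under median-of-ratios scaling and -0.043 under quantile normalization. By group mean, 16 of the 39 genes had their lowest level of the 6 groups in the libraries labelled guide 2 in DMSO, 10 with guide 2 in enzalutamide, 5 with guide 1 in enzalutamide, 5 with the control guide in enzalutamide, 2 with guide 1 in DMSO and 1 with the control guide in DMSO. These counts were not made over all tested genes, so they do not show that the list differs from other genes. Of the 5 leukocyte markers given above, the 2 that were tested were higher in the libraries labelled guide 2 in DMSO, where 50.9% of all tested genes were higher. CD68 had a log2 change of 3.44, whereas CD3E and PTPRC were below 1 TPM. On average, 2 of the 5 markers were at 1 TPM or more in these libraries and 1 in each other group. KRT15, the only 1 of 4 basal markers that was tested, changed by 1.53. The 4 basal markers summed to 2.39 to 3.25 TPM in these libraries, with 1 of them at 1 TPM or more. The part of these markers in the result was not tested.

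**Figure D5:**
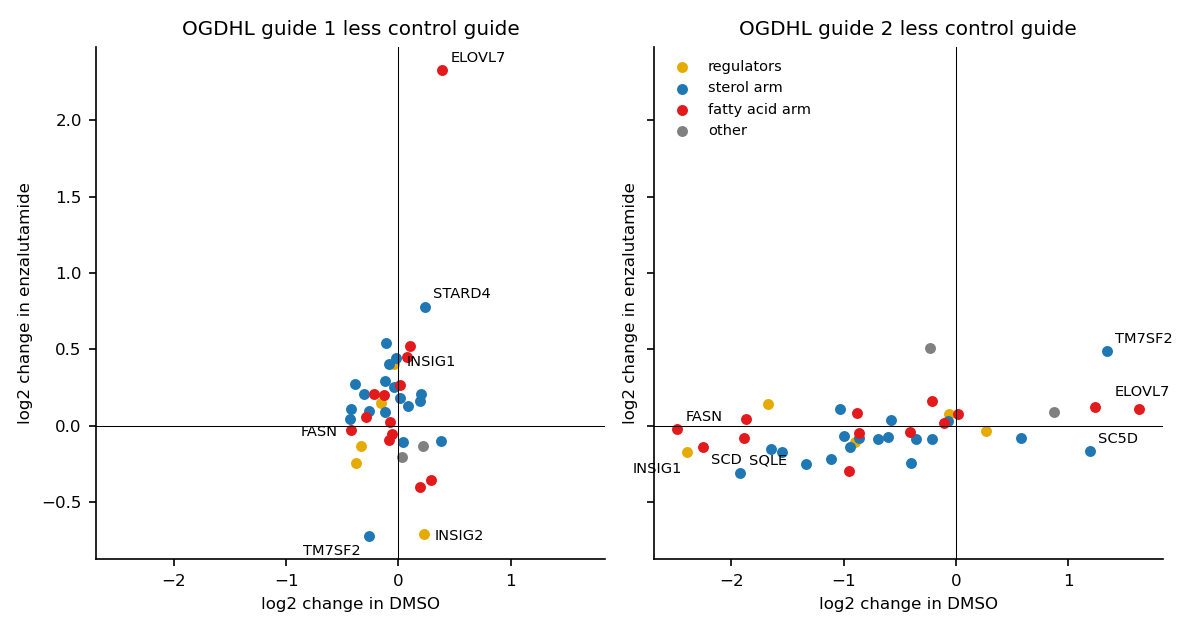
Log2 change of each of the 39 genes with an OGDHL guide less the control guide, in enzalutamide (y axis) against DMSO (x axis), for guide 1 (left) and guide 2 (right), coloured by arm. Guide 1 points spread mainly along the enzalutamide axis, with ELOVL7 at 2.33, whereas guide 2 points spread along the DMSO axis, with FASN at -2.48.

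Interactions asked whether the change with enzalutamide differed between an OGDHL guide and the control guide. With guide 1, 17 genes had a positive interaction, meaning a smaller fall or a larger rise than in control cells, and 5 a negative one, where 11.6% of all tested genes were positive and 15.2% negative. In the sterol arm 10 of 19 were positive and 1 negative, and in the fatty acid arm 6 of 13 were positive and 2 negative. ELOVL7 fell by 1.60 with guide 1 and by 3.54 with the control guide on the log2 scale, an interaction of 1.94 ± 0.11 (adjusted p = 1.2e-08, limma). EBP fell by 0.41 with guide 1 and by 1.06 with the control guide (0.65 ± 0.085, adjusted p = 7.3e-05). INSIG2 had the most negative interaction (-0.94 ± 0.092, adjusted p = 4.5e-06), followed by ELOVL6 (-0.64 ± 0.087, adjusted p = 9.4e-05). With replicate 3 as the only guide 1 library in DMSO 10 were positive and 6 negative, 13 of them as before, under the same assumption that this lone library varies like those of the other groups. On TPM with the mitochondrial rows kept 7 were positive and 2 negative.

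With guide 2, 26 genes had a positive interaction and 7 a negative one, where 19.5% of all tested genes were positive and 43.7% negative, and the median was 0.65 over the 39 genes and -0.20 over all tested genes. FASN (2.46 ± 0.20, adjusted p = 5.2e-08, limma), INSIG1 (2.22 ± 0.069, adjusted p = 1.3e-12) and SCD (2.11 ± 0.078, adjusted p = 8.6e-12) had the largest. ELOVL7 had the most negative (-1.52 ± 0.11, adjusted p = 1.2e-08). All of these rest on the libraries labelled guide 2 in DMSO, and without those 3 libraries the interaction cannot be computed. Under median-of-ratios scaling 32 were positive and 6 negative.

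Other genes of lipid metabolism were followed with enzalutamide in control cells, in lists of related function, where 24.8% of all tested genes fell and 23.1% rose. Of 14 genes of the branches of the mevalonate route 10 fell and 0 rose, among them DOLK, dolichol kinase (-0.32, adjusted p = 0.0084, limma). Of 11 genes that process or degrade the SREBP machinery 2 fell and 3 rose, both near those shares. MBTPS2, the second protease that frees SREBPs, had 12.9, 11.7 and 13.03 TPM in enzalutamide and 15.6, 16.3 and 14.9 TPM in DMSO (-0.29, adjusted p = 0.00016) and fell. ERLIN1, a lipid raft protein of the endoplasmic reticulum, rose (0.27, adjusted p = 6.8e-05), and UBE2G2, a ubiquitin-conjugating enzyme, fell (-0.26, adjusted p = 0.0001). Of 16 tested genes of cholesterol uptake and efflux 8 fell and 4 rose, the second near its share of all tested genes. NPC1, which exports cholesterol from lysosomes, had 4.89, 4.30 and 4.73 TPM in enzalutamide and 20.5, 21.7 and 21.2 TPM in DMSO (-1.97, adjusted p = 2.5e-12), and the lipoprotein receptor SCARB1 5.71, 5.31 and 5.18 TPM in enzalutamide and 13.1, 13.98 and 14.3 TPM in DMSO (-1.21, adjusted p = 3.4e-07). The cholesterol exporter ABCG1 rose, with 2.23, 2.10 and 2.23 TPM in enzalutamide and 0.350, 0.347 and 0.298 TPM in DMSO (1.26, adjusted p = 3.6e-12).

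Of 12 tested genes that supply acetyl-CoA and NADPH 5 fell and 3 rose, against the same 24.8% and 23.1% of all tested genes. The pentose phosphate enzymes PGD and TKT changed by -0.82 (adjusted p = 1.8e-10, limma) and -0.60 (adjusted p = 2.6e-05). A list of 12 genes held electron carriers of the desaturases and sterol oxidases, enzymes of the elongation cycle and of mitochondrial fatty acid synthesis, and a thioesterase, and 3 of them fell and 2 rose, shares near those of all tested genes. The cytochrome CYB5A, which passes electrons to desaturases, fell (-0.70, adjusted p = 2.3e-09), as did CYB5B (-0.34, adjusted p = 3.4e-06) and the oxidoreductase POR (-0.25, adjusted p = 0.038), and the reductase CYB5R3 rose (0.51, adjusted p = 3.8e-05).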

How the data were processed

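RNA from 16D cells in 6 groups of 3 libraries was sequenced from stranded mRNA libraries (dUTP method, paired ends), per the labels' protocols. The submitters' processing notes name STAR and GRCh38 but no version. How reads were counted, and on which annotation, is not given in the sources used here. Values the authors deposited are TPM, per the file header, in 37347 rows, and the depth behind them is unknown. The 37 mitochondrially encoded rows were removed and each library was rescaled to sum to 1000000. Rows with no gene name (10345, with 15.2% to 20.4% of the rescaled TPM) entered no test. Of symbols on several rows, 3 with at least 5 rows (69 rows) were dropped and 32 with fewer had their rows added up.

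The test was limma 3.58.1 in R 4.3.3 on log2(TPM + 1), a pseudocount of 1, for the 16067 genes with 3 or more libraries at 1 TPM or above. All 18 libraries entered with a mean per group (12 residual degrees of freedom) and a trended prior. Each gene had a single variance shared by the 6 groups, so a p-value also reflects the spread of groups outside its comparison. The p-values were adjusted over all these genes by the Benjamini-Hochberg method. The procedure was tested on simulated data. Members, lists, tests and the naming rule were chosen with earlier results of these data known. Given in full are the largest changes of each arm that passed in control cells, the largest interactions, up to 3 genes of each related list, and SREBF1, SREBF2, INSIG1 and FASN. Other genes are described by role, and some that the rule selected are not reported here. The alternatives were a pseudocount of 0.1 or 5, a filter at 5 TPM or none, the deposited TPM with mitochondrial rows, median-of-ratios scaling, quantile normalization, separate fits, array weights, a replicate block and each library left out. Coordinates came from GENCODE release 29 (GRCh38), and promoters from RefSeq (GRCh38.p14). Python 3.11.15 with pandas 2.3.3 and numpy 2.4.6 made the tables, and matplotlib 3.10.9 the figures.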

Additional observations from a re-analysis of the deposited data

Results flagged for a closer look

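The following genes changed with enzalutamide differently under an OGDHL guide than under the control guide, by limma's interaction term at an adjusted p under 0.05. Values are the log2 change with enzalutamide under the OGDHL guide less that under the control guide.

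With OGDHL guide 1, ELOVL7 had the largest value (1.94, adjusted p = 1.2e-08). Of the 17 positive values 11 are given here. Among genes of the sterol arm the values were 0.66 for DHCR7, 0.65 for EBP, 0.54 for STARD4, 0.49 for FDFT1, 0.42 for FDPS and 0.29 for HSD17B7, with adjusted p from 3.1e-05 (FDFT1) to 0.019 (DHCR7). Among the other genes they were 0.44 for INSIG1, 0.42 for ELOVL5, 0.42 for FADS2 and 0.37 for SCD. All 11 of these genes fell with enzalutamide in control cells. In enzalutamide, DHCR7 (adjusted p = 0.14, limma) and FADS2 (adjusted p = 0.13) did not pass the test of guide 1 against the control guide, whereas the others were higher. DHCR7 had 40.4, 52.6 and 71.1 TPM with guide 1 in DMSO, and 70.04, 69.4 and 70.7 TPM with the control guide in DMSO. The 5 negative values were -0.94 for INSIG2, -0.64 for ELOVL6, -0.59 for SCD5, -0.47 for SC5D and -0.35 for THRSP. The mitochondrial share of the guide 1 libraries in DMSO was 73.8%, 69.9% and 57.2%, and its part in these values was not tested.

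With OGDHL guide 2, all values rest on the libraries labelled guide 2 in DMSO, which had more OGDHL RNA than the control libraries. Of the 26 positive values the largest were 2.46 for FASN, 2.22 for INSIG1, 2.11 for SCD, 1.91 for ELOVL6, 1.82 for SREBF1 and 1.80 for FADS2. They were 1.61 for SQLE and 1.49 for CYP51A1, and smaller for genes that include FDPS (1.38), FDFT1 (1.15), EBP (1.08), DHCR7 (0.94), SREBF2 (0.79), STARD4 (0.53) and ELOVL5 (0.37). The 7 negative values were -1.52 for ELOVL7, -1.36 for SC5D, -1.11 for SCD5, -0.85 for TM7SF2, -0.79 for MLXIPL, -0.66 for HSD17B7 and -0.30 for INSIG2.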

How the results depend on the processing

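Counts are of the 39 genes called by limma, and the differences are the median log2 change of the sterol arm less that of the fatty acid arm. Where a value left its range the cause was not tested, except that fewer libraries or genes entered some fits.

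On TPM with the mitochondrial rows kept, the calls were 15 (against 33) for enzalutamide with guide 1, 14 (28) with guide 2, 28 (18) for guide 1 in DMSO, 6 (19) for guide 1 and 0 (9) for guide 2 in enzalutamide, 9 (22) for the guide 1 interaction and 14 (27) for guide 2 less guide 1. Guide 1 in DMSO (18 calls) had 8 with no filter, 35 with array weights and 0 in a fit of its own libraries, with 9 genes there at an unadjusted p under 0.05. Guide 2 in enzalutamide (9 calls) had 14 under quantile normalization and 19 with array weights. Of alternatives chosen after seeing the data, replicate 3 as the only guide 1 library in DMSO gave 0 for guide 1 in DMSO and 14 for guide 2 in enzalutamide, and a fit without the 3 libraries labelled guide 2 in DMSO gave 9 for guide 1 in DMSO.

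No pair of groups had correlations over 0.1 between same-number libraries for all 3 numbers, and the main fit did not pair them. In 3 of the 15 pairs every library correlated best with that of its own number. These values do not show whether libraries of the same number shared a culture or a batch. A replicate block left 9 calls for guide 1 in DMSO. A replicate block with each comparison's own libraries left 18 for enzalutamide with guide 1, 0 for guide 1 in DMSO and 13 for the guide 1 interaction, and each other count stayed within 1.5 times.

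Leaving out single libraries gave 0 to 26 calls for guide 1 in DMSO and 5 to 13 for guide 2 in enzalutamide. Differences of arm medians ranged over 0.15 to 0.35 for enzalutamide with guide 1 and -0.14 to -0.10 for guide 2 in enzalutamide.

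The difference of arm medians reversed with a filter at 5 TPM for enzalutamide in control cells (0.42, against -0.19) and for guide 1 in enzalutamide (-0.015, against 0.13). For enzalutamide with guide 2 (-0.19) it was -0.11 at a pseudocount of 5 and -0.12 under median-of-ratios scaling. For guide 2 in DMSO (0.17) it was 0.080 at a pseudocount of 5, 0.11 with mitochondrial rows and 0.24 under quantile normalization, and for guide 1 in DMSO (-0.025) -0.071 with replicate 3 alone. For guide 2 in enzalutamide (-0.10) it was -0.13 at a pseudocount of 0.1, -0.067 at 5, -0.061 at a filter of 5 TPM, -0.12 with mitochondrial rows, -0.12 under median-of-ratios scaling and -0.14 under quantile normalization.

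Among single genes, INSIG2 reversed with mitochondrial rows kept for enzalutamide with guide 1 (0.017) and guide 1 in DMSO (-0.18), and for guide 2 in DMSO under median-of-ratios (-0.053) and quantile scaling (-0.043). For guide 1 in DMSO, STARD4 (-0.23), ELOVL6 (-0.13) and ELOVL7 (-0.072) reversed with mitochondrial rows kept and DHCR7 (0.020) with replicate 3 alone.

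Scaling moved the split of all tested genes. For enzalutamide with guide 2 it was 3688 higher and 7981 lower, against 6205 and 5366 under median-of-ratios and 6497 and 5260 under quantile scaling. For guide 2 in DMSO it was 8185 higher and 3853 lower, against 5547 and 6572 or 5486 and 6545. For guide 1 in DMSO it was 3383 and 1786, against 2779 and 3234 or 3127 and 2685, and 35 and 7952 with mitochondrial rows. With those rows kept, it was 3829 and 625 (3137 and 3745 without) for enzalutamide with guide 1, 1799 and 7716 for enzalutamide with guide 2, 362 and 891 (2616 and 2302) for guide 1 in enzalutamide and 132 and 115 (1442 and 807) for guide 2 in enzalutamide, which had 1465 and 1271 under median-of-ratios. The guide 1 interaction (1868 and 2438) had 841 and 234 with those rows and 2866 and 2281 under median-of-ratios. The guide 2 interaction (3137 and 7019) had 1354 and 5698 with those rows, 5609 and 4614 under median-of-ratios and 5595 and 4596 under quantile scaling. TPM keeps no depth, so no counting error is given.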

Other observations

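With enzalutamide in control cells, 7 of 19 tested genes of fatty acid oxidation rose and 1 fell, where 23.1% of all tested genes rose and 24.8% fell. HADHB, a subunit of the mitochondrial trifunctional protein, had 36.5, 34.9 and 35.5 TPM in enzalutamide and 18.3, 18.6 and 17.8 TPM in DMSO (log2 change 0.93 ± 0.035, adjusted p = 1.2e-11, limma). The short-chain dehydrogenase ACADS also rose (0.54, adjusted p = 0.0048). With guide 1 in enzalutamide 6 of the 19 were lower than with the control guide and 0 higher, where 14.3% of all tested genes were lower and 16.3% higher.

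Of 16 tested genes of triglyceride and phospholipid synthesis 6 fell and 4 rose in control cells, where 24.8% of all tested genes fell and 23.1% rose. The acyl-CoA synthetase ACSL3, which activates fatty acids on lipid droplets, had 14.6, 13.2 and 14.4 TPM in enzalutamide and 94.8, 97.1 and 93.7 TPM in DMSO (-2.67 ± 0.074, adjusted p = 4.2e-13, limma). ACSL1 changed by -1.46 (adjusted p = 1.4e-11) and the choline kinase CHKA by -1.15 (adjusted p = 6.1e-13). ACSL3 was higher with guide 1 in enzalutamide, with 24.2, 21.6 and 24.5 TPM, than with the control guide (0.69 ± 0.074, adjusted p = 5.8e-06).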
